A study of Homo sapiens with 2 samples.

Results

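PRF1, CD3D, CD3G, CD3E, IKZF3, IL18RAP, SH2D1B, TRDV3, CD5 and CD52 are genes known from T cells, natural killer (NK) cells and B cells, and they were examined here in K562 cells, a human line of chronic myeloid leukaemia taken at blast crisis. All probe sets that the array's annotation gives to these 10 genes were taken, 17 of the 54613 human probe sets on the array. Total RNA was hybridised to 2 Affymetrix arrays, 1 of K562 cells carrying the empty retroviral vector pMSCV and 1 of K562 cells carrying a retrovirus that overexpresses PML4, an isoform of the promyelocytic leukaemia protein. Both cultures had been under G418 for 3 weeks, and the labels do not say whether they were clones or pools. The comparison addresses how transcript levels differ when PML4 is overexpressed. Each group is 1 array, so a difference here is one between 2 arrays, has no replicate error and carries no p-value. The genes were chosen by their known lymphoid roles and by these same differences between the 2 arrays, so the differences below describe them and test nothing.

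Perforin, the product of PRF1, is stored in the granules of cytotoxic lymphocytes and forms pores through which granzymes enter a target cell. The CD3 delta, gamma and epsilon chains, encoded by neighbouring genes, carry the signal of the T cell receptor into the cell. K562 cells are of the erythroid and megakaryocyte type and are widely used as targets of NK cells rather than as lymphoid cells.

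The RefSeq promoter table of GRCh38.p14 held start sites for 5 of the 10 genes. The 250 bases before the start are shown for each of these, because they lie next to annotated starts of the genes. Which starts were used in these cells was not measured. For IL18RAP, which has several starts in the table, the window of the first entry is shown. They are written 5′ to 3′ on the gene's own strand, and capitals mark every match, on either strand, to one of the motifs named below.
PRF1, chr10:70602742-70602991, minus strand: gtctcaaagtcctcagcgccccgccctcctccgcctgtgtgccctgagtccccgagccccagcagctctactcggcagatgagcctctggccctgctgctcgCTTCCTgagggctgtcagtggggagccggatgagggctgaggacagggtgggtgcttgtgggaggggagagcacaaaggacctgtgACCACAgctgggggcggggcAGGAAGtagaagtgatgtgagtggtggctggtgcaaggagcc
CD3D, chr11:118342706-118342955, minus strand: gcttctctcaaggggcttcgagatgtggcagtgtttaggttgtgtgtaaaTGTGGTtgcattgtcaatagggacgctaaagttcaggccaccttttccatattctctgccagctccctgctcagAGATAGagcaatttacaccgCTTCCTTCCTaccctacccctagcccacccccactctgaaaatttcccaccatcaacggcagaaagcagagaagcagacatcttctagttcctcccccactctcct
IL18RAP, chr2:102418371-102418620, plus strand: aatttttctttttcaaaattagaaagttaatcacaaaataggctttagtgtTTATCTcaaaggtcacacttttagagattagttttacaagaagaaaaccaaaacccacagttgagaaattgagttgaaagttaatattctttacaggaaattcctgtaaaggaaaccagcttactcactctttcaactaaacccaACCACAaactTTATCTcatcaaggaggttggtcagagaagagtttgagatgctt
SH2D1B, chr1:162412137-162412386, minus strand: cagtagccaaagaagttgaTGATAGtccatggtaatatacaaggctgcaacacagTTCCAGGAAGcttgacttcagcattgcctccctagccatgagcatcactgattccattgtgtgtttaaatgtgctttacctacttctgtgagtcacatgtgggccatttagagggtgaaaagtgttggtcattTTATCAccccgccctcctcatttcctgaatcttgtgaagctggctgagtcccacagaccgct
CD52, chr1:26317708-26317957, plus strand: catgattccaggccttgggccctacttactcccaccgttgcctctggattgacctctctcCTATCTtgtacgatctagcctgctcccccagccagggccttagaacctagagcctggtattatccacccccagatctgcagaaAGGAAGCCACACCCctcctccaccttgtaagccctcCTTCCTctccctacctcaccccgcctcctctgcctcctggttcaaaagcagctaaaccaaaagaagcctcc

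The motifs were the GATA words AGATAA or AGATAG, with the variants TGATAA or TGATAG in their place, the RUNX word TGTGGT, the ETS word AGGAAG, the STAT word TTCNNNGAA, the CACCC word CCACACCC and the TATA word TATAAA, searched on both strands. A GATA word stood in 4 of the 5 windows shown, all but that of PRF1, and in 22.4% of 34788 RefSeq windows of the same length. The ETS word stood in 4 of the 5, all but that of IL18RAP, and in 28.7% of all windows. It was present in the windows of the other 2 IL18RAP starts, which are not shown, at bases -15 to -10 and -49 to -44. The window with the match at -15 to -10 also held GATA and RUNX words, and the other held neither. In the PRF1 window the match nearest to the start ran from base -42 to base -37, counted back from the start site. The RUNX word stood in the windows of PRF1, CD3D and IL18RAP and in 3816 of the 34788. The STAT word was found in that of SH2D1B, where it overlaps the ETS word, against 6.57% of all windows, and the CACCC word in that of CD52, against 2.94%. The TATA word was in none of the 5 and in 10.8% of all windows. These are matches of letters, chosen after the array values were known, and binding at them was not measured.

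Signals are MAS5 intensities, which are linear and have no absolute unit. The floor was set at 72.4, the median human signal when the arrays are pooled, and a probe set was measured when it exceeded the floor on at least 1 array. Lower signals were set to the floor value before the log2 difference, PML4 minus control vector, was computed, and a difference with 1 side so set is a bound. Of the 17 probe sets, 9 lay above the floor on both arrays, 4 on 1 array and 4 on neither, and every gene had at least 1 measured probe set. A gene is represented by its measured probe set of highest mean log2 signal, and counts as 2-fold higher or lower from that probe set.

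With PML4, 7 of the 10 genes were at least 2-fold higher, against 1.23% of the 12541 genes measured. PRF1, CD3D, CD3G, IKZF3 and IL18RAP were so with both arrays above the floor, and SH2D1B and TRDV3 as bounds. CD5 was at least 2-fold lower, also as a bound, against 3.21% of all genes. CD52 was under 2-fold. CD3E was not called, but its value, at least 1.46-fold lower, is a bound. By probe set, 8 of the 13 measured ones were at least 2-fold higher and 1 lower, against 1.30% and 3.22% of all measured human probe sets. The median log2 difference of the 10 genes was 1.43 and that of all genes -0.05. Nothing is read from these shares, since the genes were chosen for their differences. Differences of this size were commoner at low signal: in the lowest quartile of genes by signal, where 7 of the 10 genes lie, 2.26% were at least 2-fold higher and 7.24% at least 2-fold lower. In the highest quartile, which holds PRF1, CD3D and CD52, the shares were 0.510% and 0.702%. The split of calls over all genes moved with scaling, from 27.7% of them higher as deposited to 41.1% after quantile normalization and 37.9% after loess centring.

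**Figure D1:**
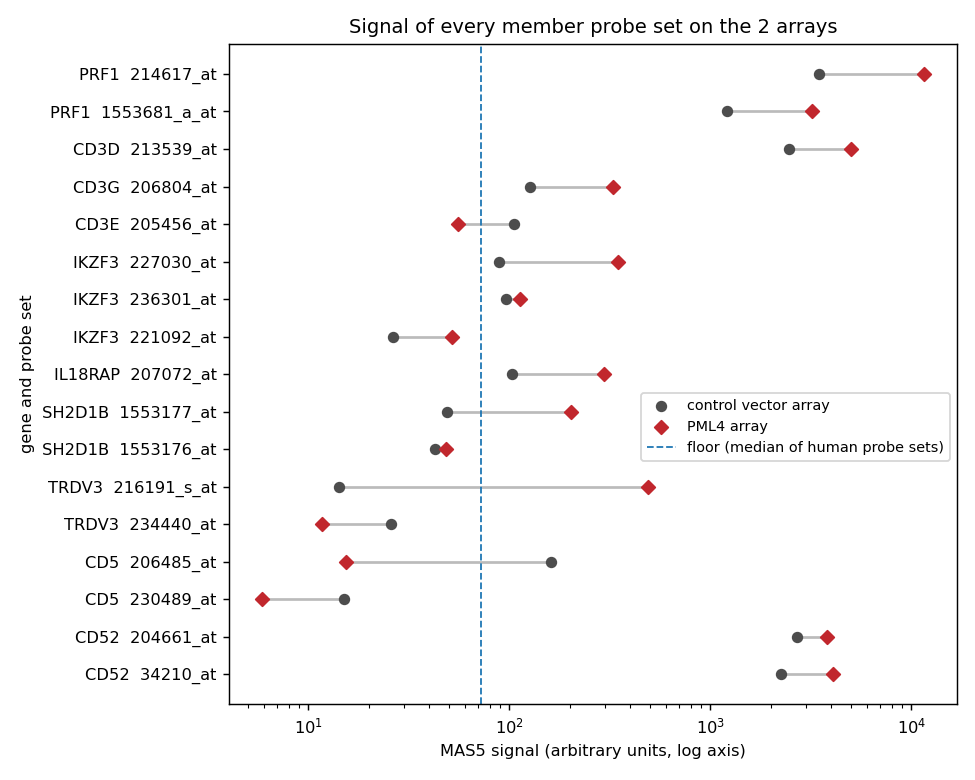
MAS5 signal, in arbitrary units on a log axis, of each of the 17 probe sets on the control vector array (circles) and the PML4 array (diamonds), with the floor of 72.4 as a dashed line. PRF1, CD3D and CD52 lie well above the floor on both arrays, while the other genes lie below or near it on at least 1 array.

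Perforin signal was higher in both of its probe sets. The PRF1 probe set 214617_at read 3459.0 with the control vector and 11617.0 with PML4, a ratio of 3.36. The second probe set, 1553681_a_at, read 1209.0 and 3190.2, a ratio of 2.64. Both were thus far above the floor on both arrays and differed in the same direction by at least 2-fold. Their log2 differences, 1.75 and 1.40, lay 0.35 apart. Over pairs of probe sets of 1 gene whose dimmer member was in the same quartile of signal, the median gap was 0.22 and the 90th percentile 0.59. PRF1 was already read on the control vector array, where the floor was exceeded by both probe sets. Among 3135 genes in the highest quartile of signal, the log2 differences nearest to that of PRF1 were those of HBZ, the embryonic zeta-globin, 0.22 away, of CAVIN1, a caveolar coat protein, 0.41 away, and of CITED2, a transcriptional co-regulator, 0.44 away. This likeness rests on a single difference between 2 arrays.

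The CD3 chains did not differ as a set. CD3D, the delta chain, read 2478.0 and 4996.3 on the control vector and PML4 arrays, 2.02-fold higher, in its only probe set. Its log2 difference of 1.01 lay at the edge of the 2-fold mark and was 0.97 after quantile normalization and 0.97 after loess centring, which places it under that mark. CD3G, the gamma chain, read 126.1 and 329.3, 2.61-fold higher, in its only probe set. CD3E, the epsilon chain, went the other way: it read 105.9 with the control vector and 55.3, under the floor, with PML4, at least 1.46-fold lower. The zeta chain, CD247, was under the floor on both arrays in both of its probe sets. A signal above the floor on both arrays was thus seen for the delta and gamma chains, and not for the epsilon and zeta chains that complete the complex.

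The 3 CD3 genes lie side by side on chromosome 11 in the RefSeq annotation of GRCh38.p14. The nearest genes with a measured probe set on the CD3E side were MPZL2, at 51.3 and 76.1, and MPZL3, at 576.8 and 917.5. On the CD3G side they were UBE4A, a ubiquitin ligase, at 5382.8 and 5809.1, and ATP5MG, a subunit of ATP synthase, at 21881.2 and 22679.5. None of these 4 was called at 2-fold in either direction. Nor were the 4 nearest measured neighbours of PRF1 (PALD1, EIF4EBP2, ADAMTS14 and SGPL1) or of IKZF3 (GRB7, MIEN1, GSDMB and ORMDL3). The log2 differences of these 8 ran from -0.78 for GRB7, a bound, to 0.87 for ORMDL3. PALD1 and MPZL2 are bounds as well, so the full differences of GRB7, PALD1 and MPZL2 may be larger. On the control vector and PML4 arrays GRB7 read 123.9 and 30.4, and PALD1 94.2 and 26.5.

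TRDV3, a variable segment of the T cell receptor delta chain, was higher in 1 probe set and not measured in the other. The probe set 216191_s_at read 14.2 with the control vector, under the floor, and 491.3 with PML4, at least 6.79-fold higher. The other, 234440_at, read 25.8 and 11.7, under the floor on both arrays. Only 1 of the 2 probe sets therefore gave a measured signal. The ending _s_at marks a probe set that can match more than 1 transcript, and no value is left for TRDV3 when such probe sets are not used. With the floor at the 75th percentile of signal, 465.0, the bound for TRDV3 shrank to 0.08 on the log2 scale.

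IKZF3, which encodes the lymphoid transcription factor Aiolos of the Ikaros family, was higher mainly in 1 of its 3 probe sets. That probe set, 227030_at, read 88.6 and 346.7, a 3.91-fold higher signal on the PML4 array. The second, 236301_at, read 96.5 and 113.1, 1.17-fold higher. The third, 221092_at, read 26.4 and 51.9, under the floor on both arrays. All 3 were higher as deposited, but the log2 differences of the measured pair lay 1.74 apart. The median gap for pairs in the lowest quartile of signal was 0.39 and the 90th percentile 0.96. Averaged over the measured pair, the log2 difference of IKZF3 was 1.10.

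IL18RAP, the accessory chain of the interleukin-18 receptor, read 103.7 and 295.4, a 2.85-fold higher signal on the PML4 array. It has 1 probe set, and its control vector value lies close to the floor. IL18R1, the chain that binds the cytokine, read 142.9 and 172.0, and IL18 itself was under the floor on both arrays. Of the receptor pair, the accessory chain therefore showed the larger difference.

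SH2D1B encodes EAT-2, a small SH2-domain adaptor that couples SLAM family receptors to signalling in NK cells. Its probe set 1553177_at read 48.7, under the floor, and 202.2, at least 2.79-fold higher. The other, 1553176_at, read 42.9 and 48.4, under the floor on both arrays, so a single probe set carries the difference. SH2D1A, the related adaptor SAP, went the other way in its 1 measured probe set of 4, at 114.8 and 6.6.

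CD5, a scavenger-type receptor that dampens T cell receptor signals, was lower. Its probe set 206485_at read 160.9 with the control vector and 15.4, under the floor, with PML4, at least 2.22-fold lower. The other, 230489_at, read 15.1 and 5.9 and so was not measured. The ratio of the deposited values of 206485_at, 10.4-fold, rests on a PML4 signal far under the floor.

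CD52, a short lipid-anchored glycopeptide on the surface of lymphocytes, was clearly read on both arrays and differed by less than 2-fold. The probe set 204661_at read 2695.3 and 3818.8, 1.42-fold higher, and 34210_at read 2247.1 and 4062.4, 1.81-fold higher. Their log2 differences lay 0.35 apart, against a median gap of 0.15 and a 90th percentile of 0.46 for pairs in the highest quartile of signal.

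**Figure D2:**
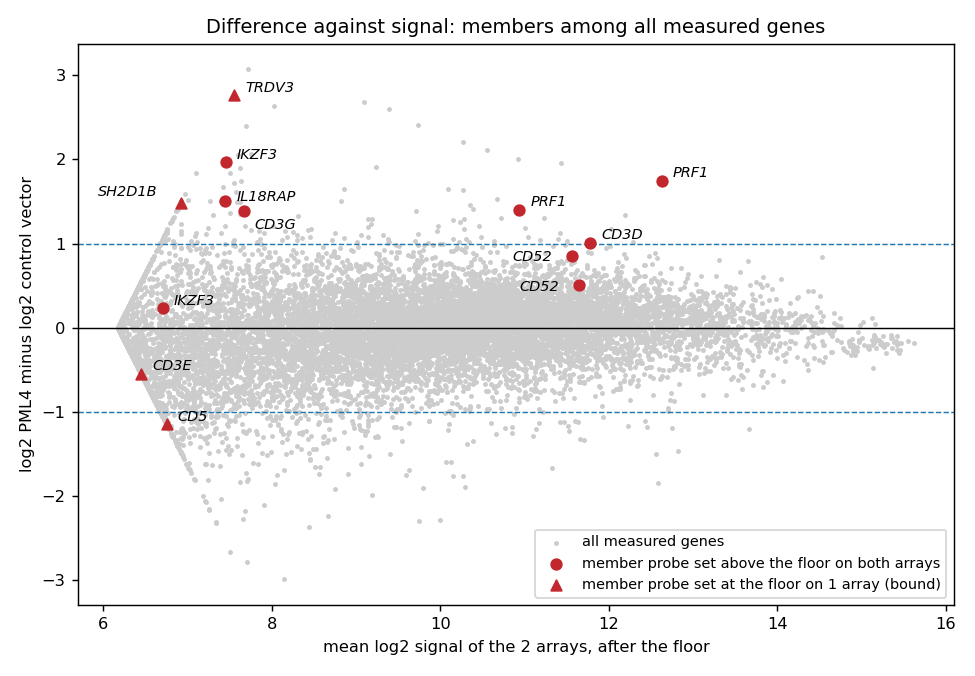
Log2 difference, PML4 minus control vector, against the mean log2 signal of both arrays for all 12541 measured genes (grey) and for the 13 measured probe sets of the 10 genes (red; triangles mark bounds). Dashed lines mark 2-fold; PRF1 lies at the bright end of the scale, while most of the other large differences lie at the dim end, where grey points also spread widely.

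Agreement between probe sets could be read for 3 genes. PRF1, IKZF3 and CD52 each had 2 measured probe sets, and in all 3 genes both were higher with PML4. Over all genes with several measured probe sets, 3161 of 6143 had them all on one side. That count takes in genes with more than 2 measured probe sets and genes of any difference. It is therefore not a like comparison for these 3, which were chosen for their differences. The other 7 genes rest on 1 measured probe set each, 4 of them because the array has no other.

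Control probe sets for transcripts that K562 cells do not make show how far signals of the 2 arrays lay apart. Of 20 such probe sets, for bacterial and phage transcripts, with a mean signal between the floor and 4 times the floor, the PML4 to control vector ratio ran from 0.653 to 1.72 and none differed by 2-fold. Of 7 under the floor, 2 did. The geometric means of CD3G, IL18RAP and IKZF3 over both arrays lie in the former range, and their PML4 values lie above it. The controls carry no difference between the cultures themselves, so they do not give the spread for genes of the cells. Probe sets for PML disagreed in direction, with 5 of 9 measured ones higher and 4 lower, so PML does not give a single level for the transduced cells.

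**Figure D3:**
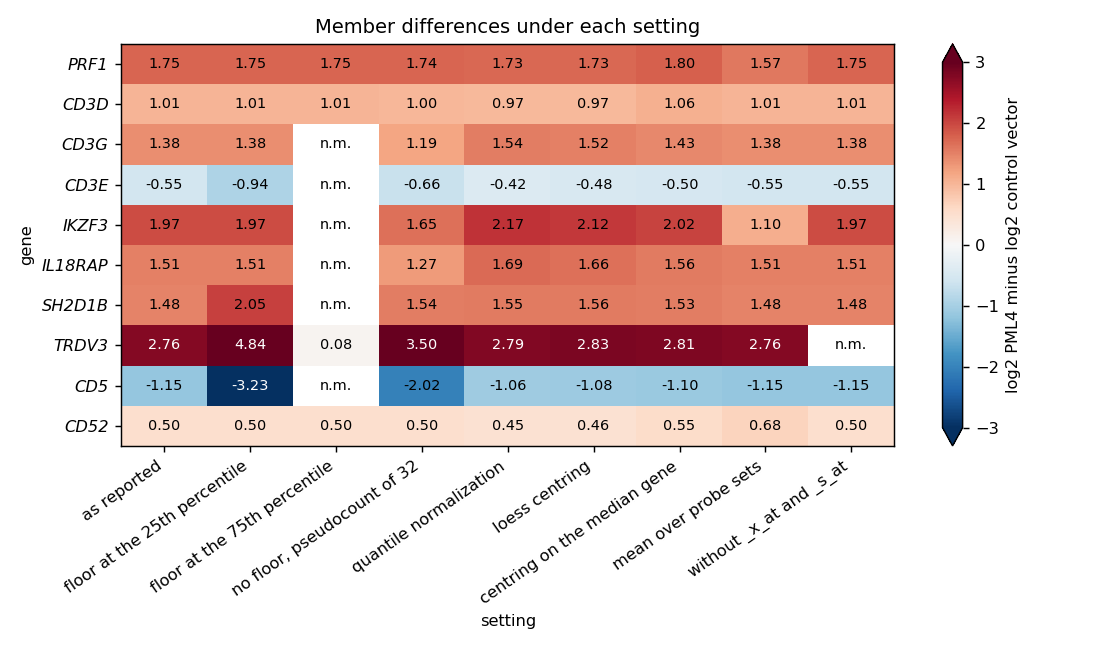
Log2 difference, PML4 minus control vector, of each of the 10 genes as reported and under 8 other settings (n.m., not measured; colours are cut off at 3 and -3). PRF1 stays between 1.57 and 1.80, CD3D between 0.97 and 1.06, and TRDV3 runs from 0.08 to 4.84.

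Other genes of the same pathways were taken as 6 lists holding 152 genes, of which 89 were measured. Of these, 5 were called at least 2-fold higher and none at least 2-fold lower, against 1.23% and 3.21% of all genes. Their log2 median was 0.11, and 47 were higher and 42 lower. The 5 were CTSC and CST7 of the cytotoxic granule list, NCR3 among NK receptors, IL1RL1 of the interleukin-1 receptor family and IKZF2 of the Ikaros family. The split of calls depended on the floor, which shrinks the difference of a bound. With a pseudocount of 32 in its place, 3 were higher and 4 lower, against 1.34% and 4.62% of all genes. Nothing is read from these shares, since the lists were chosen with earlier results of these data known.

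Granule genes other than perforin did not differ as a set. Of 17 measured members 2 were at least 2-fold higher, and the median was -0.01. CTSC, the cathepsin that activates granzymes, read 2761.5 and 6245.3, 2.26-fold higher, and all 4 of its probe sets were higher, by log2 differences of 0.89 to 1.22. CST7, cystatin F, an inhibitor of such cathepsins, read 64.8, under the floor, and 196.7, at least 2.72-fold higher. The brightest members were CTSH, another cathepsin, at 13574.9 and 15180.4, and VAMP7, a vesicle fusion protein, at 11607.6 and 9310.3. RAB27A, which docks granules at the membrane and is named after its value was seen, read 5356.3 and 2796.6, with all 5 measured probe sets lower. The granzymes GZMA, GZMB, GZMH, GZMK and GZMM were under the floor on both arrays, as were GNLY, granulysin, and NKG7. PRF1 was thus read without the granzymes it accompanies in cytotoxic lymphocytes.

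Of 17 measured genes of proximal T cell receptor signalling, 11 were higher and 6 lower, none called at 2-fold, with a median of 0.34. Of the 17, 16 lay above the floor on both arrays. The brightest were GRB2, an adaptor, at 3069.6 and 3877.7, and NFATC3, a calcium-regulated transcription factor, at 2684.8 and 4399.0, higher in all 6 of its probe sets. LCK and ZAP70, kinases of proximal T cell receptor signalling, were under the floor on both arrays. Of 9 measured surface receptors of T and B cells none was called at 2-fold, and the median was 0.07. Only 5 of the 9 lay above the floor on both arrays, and the others are bounds. CD24, a mucin-like surface protein, read 16969.9 and 10534.5, lower in all 6 probe sets, and CD58, the ligand of CD2, read 3536.7 and 5874.2, higher in 3 of 4.

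Of 11 measured NK receptors, SLAM receptors and their adaptors, 6 were higher and 5 lower, with a median of 0.34. NCR3, the activating receptor NKp30, read 20.7, under the floor, and 155.8, at least 2.15-fold higher, and all 3 of its measured probe sets were higher as bounds. CD84, a SLAM family receptor, read 1610.0 and 2872.9, 1.78-fold higher, in the same direction in all 5 probe sets. TYROBP, a signalling adaptor of NK and myeloid receptors, read 364.1 and 459.5.

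In the interleukin-18 and interleukin-1 list, 6 of 12 measured genes were higher and 6 lower, with a median of 0.07. IL1RL1, the interleukin-33 receptor ST2, read 103.1 and 340.1, 3.30-fold higher, and its 3 measured probe sets were all higher. The brightest members were IRAK1, a kinase of the pathway, at 6720.6 and 6608.9, and MYD88, its adaptor, at 1933.9 and 2373.4. Of 23 measured lymphoid transcription factors 11 were higher and 12 lower, with a median of -0.03. IKZF2, which encodes Helios, read 199.6 and 422.6, 2.12-fold higher, in its 1 measured probe set. IKZF1, Ikaros itself, read 1831.4 and 2690.5, with 6 of 7 measured probe sets higher, and IKZF4 and IKZF5 had probe sets on both sides. The brightest members were LYL1, at 6849.5 and 5534.2, and TCF12, at 4830.5 and 4747.1.

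**Figure D4:**
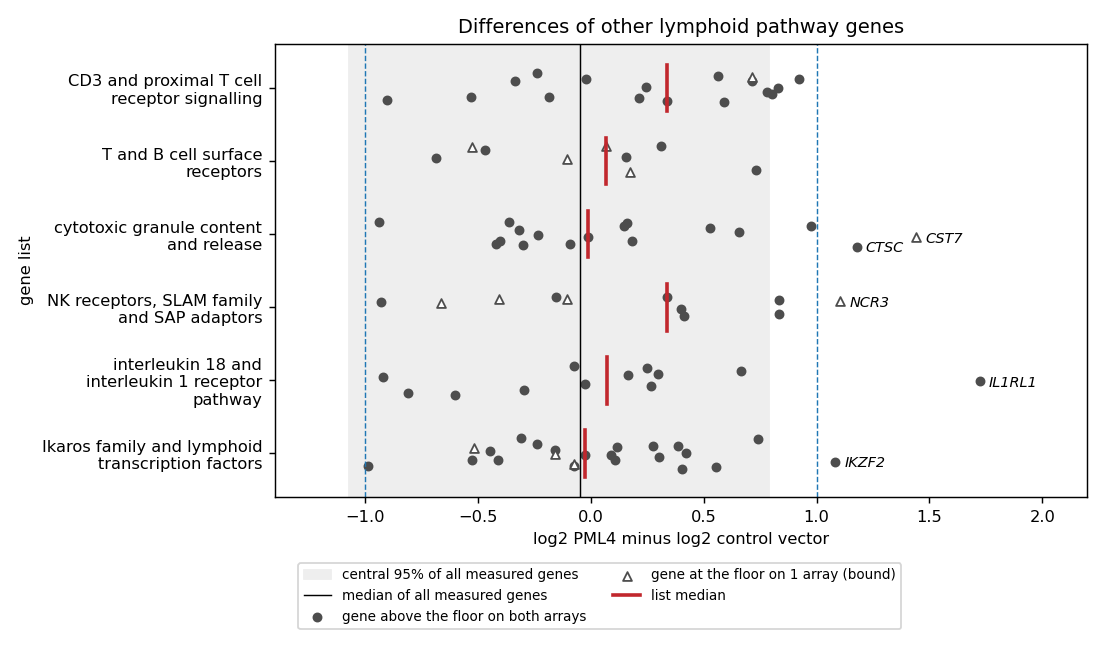
Log2 difference, PML4 minus control vector, of each measured gene in 6 lymphoid gene lists (triangles mark bounds, red bars list medians). Dashed lines mark 2-fold and the shaded band holds the central 95% of all measured genes, from -1.07 to 0.79; the list medians lie between -0.03 and 0.34, and the 5 genes past 2-fold are named.

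Markers of lymphoid cells were mostly under the floor on both arrays. In bulk RNA, fewer cells of a type and less RNA per cell cannot be told apart. Of 9 T cell markers with a probe set of their own, 8 were under the floor on both arrays, among them CD2, CD8A, CD28, CD247 and LCK. CD6 was the exception, at 77.9 and 21.9. The summed signal of the list was 412.2 on the control vector array and 240.4 on the PML4 array. Of 8 NK markers 5 were under the floor on both arrays, and the sum was 418.6 and 421.0. KLRF1, an NK lectin-like receptor, read 116.8 and 155.3, NCR1, the receptor NKp46, 121.4 and 109.2, and CD244, a SLAM family receptor, 96.1 and 58.5. Of 9 B cell markers 7 were under the floor on both arrays, and the sum was 515.5 and 407.7. The T cell sums are made mostly of signals under the floor, and the NK and B cell sums partly so. These sums show no change or lack of one. None of the 6 T, NK and B cell markers that were measured was called at 2-fold. CD6, CD22 and CD244 among them are bounds, so their full differences may be larger. Of 10 monocyte and granulocyte markers 4 were measured, with sums of 4530.7 and 4254.8, most of which is LYZ, lysozyme. CSF3R, the granulocyte colony-stimulating factor receptor, was 3.64-fold lower, at 500.3 and 137.3. Of 10 fibroblast markers 5 were measured, 4 of them lower, with sums of 4196.7 and 3815.3, most of which is FN1, fibronectin. SPARC, a matrix protein, was 2.75-fold lower, at 303.6 and 110.3. The K562 markers were read on both arrays in 8 of 8 genes, among them KLF1 at 3062.8 and 3196.4, GATA1 at 2333.2 and 2821.9 and HBE1, epsilon-globin, at 18103.9 and 24540.1. HBZ was 3.90-fold higher, at 1401.4 and 5465.5. EPOR, the erythropoietin receptor, was 2.08-fold lower, at 760.3 and 364.8, in the probe set that represents it, with 3 of 4 measured probe sets lower. TAL1, an erythroid transcription factor, read 2679.9 and 1861.8. Of the 8 K562 markers 6 were thus higher and 2 lower, each in the probe set that represents it. GATA1 and TAL1 each had 1 measured probe set higher and 1 lower. The summed signal of the 8 markers was 46855.1 on the control vector array and 70813.6 on the PML4 array. Most of it came from HBE1 and TFRC, the transferrin receptor.

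**Figure D5:**
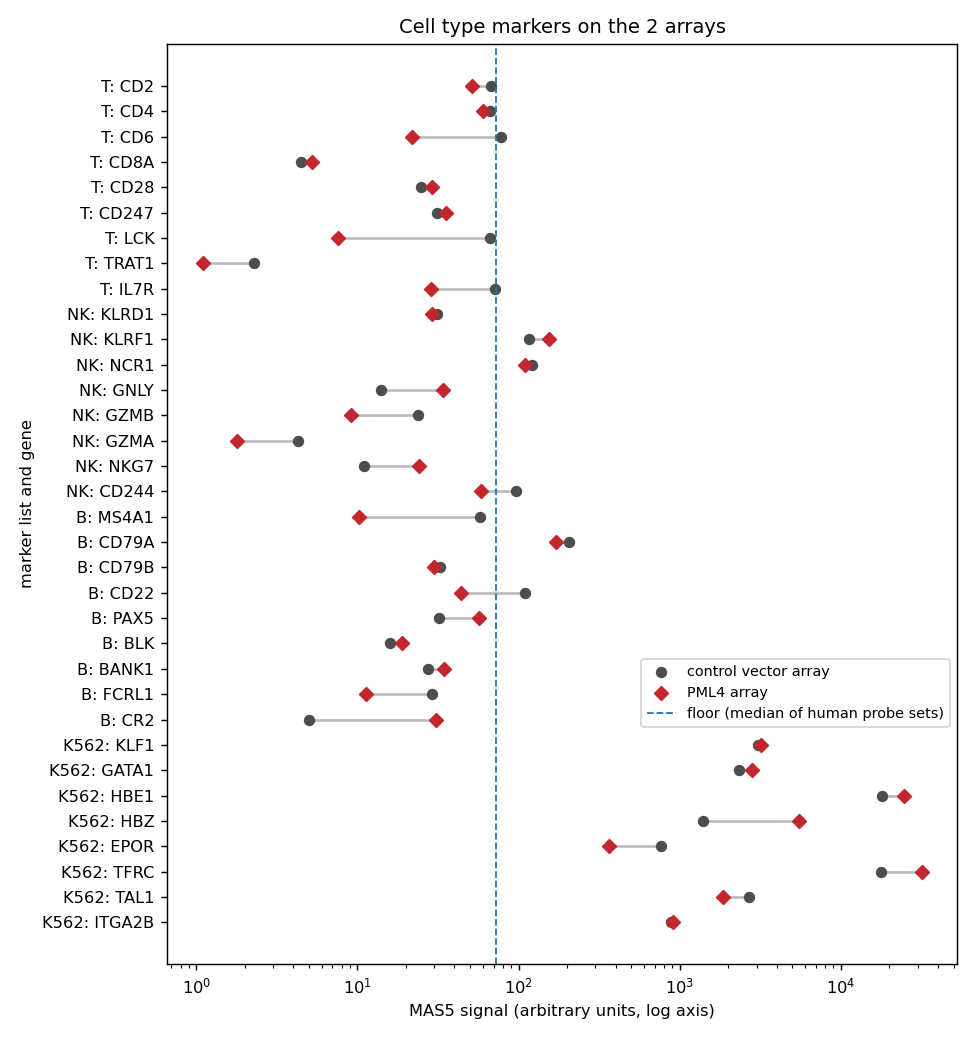
MAS5 signal, in arbitrary units on a log axis, of T, NK and B cell markers and of erythroid and megakaryocyte markers of K562 cells on the control vector array (circles) and the PML4 array (diamonds). Most lymphoid markers lie left of the dashed floor of 72.4 on both arrays, and all 8 K562 markers lie right of it.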

How the data were processed

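Biotin-labelled cRNA from 6 µg of total RNA was hybridised to 1 array per group, per the labels. The authors deposited linear signal intensities from MAS5, a tool named per the submitters' processing notes; its version and settings, and any detection calls, were not used here. On either array the mean with 2% of probe sets trimmed at each end was 500.0 or 500.1. Genes were named from GEO's array annotation, only where a probe set has 1 gene (41091 human probe sets; 1801 have several and 11721 none), with symbols updated by Entrez identifier.

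No further normalization was applied. Differences, floor and the 2-fold mark are as defined in the results, and 29370 probe sets were measured. The steps were tested on simulated data, in Python 3.11.15 with statsmodels 0.14.6 for loess. Named genes are all 10 genes, list members past 2-fold, the 2 brightest of each list, the 3 genes nearest to PRF1 in difference and the 2 nearest measured neighbours on either side of PRF1, IKZF3 and the CD3 genes; others are said to be named after their values were seen or serve as markers, family members or partners of a gene described. The genes and lists were chosen with earlier results of these data known. Having 1 array per group limits the precision. Alternatives were other floors, no floor, other scalings, the mean of probe sets, no _x_at or _s_at probe sets, and calls at 1.5-fold and 3-fold.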

Additional observations from a re-analysis of the deposited data

How the results depend on the processing

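Each of the 10 differences kept its direction under all 8 alternatives in which its gene was measured, and 64 of 73 values moved by less than 0.29 on the log2 scale, the median gap between probe sets of a gene. The count of genes at least 2-fold higher was 6 or 7 except with a 3-fold mark, where it was 3, and under a floor set at the 75th percentile, where 4 genes were measured and 2 were higher. In both of these the count of lower genes was 0. In the pathway lists a floor at the 25th percentile gave 8 higher and 15 lower of 128 measured genes, where 3.79% and 11.4% of all genes were called. One at the 75th gave 1 higher of 46, against 0.629% of all genes. With a pseudocount of 32 in place of raising signals to the floor, 3 were higher and 4 lower of the same 89, against 1.34% and 4.62%. After loess centring 1 was lower of 91, against 2.46%. The signalling list had a median of 0.65 without _x_at and _s_at probe sets. The NK list had -0.13 and 0.84 under those floors in turn, the latter from 1 gene, and the surface receptor list -0.47 under the higher one. A higher floor leaves fewer genes; beyond that the cause was not tested. Beside IKZF3 and TRDV3, the single genes that moved by more were CD5, CD3E and SH2D1B. CD5 was at -3.23 under the lower floor and -2.02 with the pseudocount. CD3E was at -0.94 and SH2D1B at 2.05, both under the lower floor. No paired analysis was possible because each group is 1 array.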

Other observations

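Other antigen receptor segments, looked at after the values of TRDV3 were seen, were mostly under the floor. Of 7 other probe sets that the annotation gives to a single T cell receptor segment or constant region, 2 were measured, both of TRBC1. TRBC1, a constant region of the receptor beta chain, had 3 of the 7, of which 210915_x_at read 63.7 and 135.0 on the control vector and PML4 arrays and 213193_x_at read 102.2 and 130.2. The third TRBC1 probe set, 211796_s_at, was under the floor on both arrays. Of 34 probe sets for immunoglobulin segments 3 were measured, all lower with PML4 and none called at 2-fold, the one for IGLC1 being a bound.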
